A study of Mus musculus with 27 samples.

Results

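Transcripts of 10 genes of serotonin and opioid signalling were followed in RNA sequencing of mouse colon. The genes were taken by symbol and not by a rule on their values, though earlier results of these data were known. They are 10 of the 39971 genes in the deposited table. Tph1 makes serotonin, Slc6a4, Maoa and Maob clear it, and Htr4, Htr2b and Htr3a are its receptors. Penk encodes the enkephalin precursor, and Oprd1 and Oprm1 encode the delta and mu opioid receptors. Of the 10 genes, 9 had at least 10 counts in at least 5 of the 27 libraries and entered the test with 22935 genes in all. Oprm1 did not reach that filter and is described by its counts alone.

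All mice were wild-type BALB/c. The NC group (n = 6) was given saline into the peritoneum and the stomach, and colon was sampled. The other 4 groups carried neoplasia brought on by AOM/DSS, that is the carcinogen azoxymethane and the colon irritant dextran sulfate sodium, and the sampled tissue was a colon segment bearing tumor. Tissue source and AOM/DSS exposure therefore cannot be told apart in a comparison with NC. CAC (n = 5) was given saline by both routes, CAC_F (n = 5) FOLFOX into the peritoneum and saline into the stomach, and CAC_FP (n = 5) FOLFOX and a probiotic complex. CAC_FPL (n = 6) was given FOLFOX, the probiotic complex and loperamide, the last 2 into the stomach. FOLFOX combines folinic acid, fluorouracil and oxaliplatin. Loperamide was not given without the other agents in any group, so it was measured only on top of them. Tissue was taken 1 week after chemotherapy began, and ages and doses are unstated in the sources used here. The labels number the libraries within a group but name no mouse, so the p-values measure the spread between these samples, which may in part be technical.

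Most serotonin of the body is made in enterochromaffin cells of the gut epithelium, where tryptophan hydroxylase 1 catalyses the limiting step. Released serotonin acts on receptors of enteric neurons, smooth muscle and epithelium and drives peristalsis and secretion, until the transporter Slc6a4 takes it into epithelial cells and the monoamine oxidases break it down. Enteric neurons also make enkephalins, which act on opioid receptors coupled to inhibitory G proteins and slow propulsion. Loperamide is an agonist of the mu opioid receptor that acts mainly in the gut wall.

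Maoa and the transporter Slc6a4 stand at successive steps of serotonin clearance, and their promoters are shown because Maoa was the called gene with the highest level per length and Slc6a4 brings serotonin to it. The sequences are the 250 bases before the RefSeq gene start in GRCm38.p6, on the plus strand, and capitals mark a GC box, the letters GGGCGG or CCGCCC. The Maoa stretch is chrX:16619448-16619697 and the Slc6a4 stretch is chr11:76998347-76998596.
Maoa: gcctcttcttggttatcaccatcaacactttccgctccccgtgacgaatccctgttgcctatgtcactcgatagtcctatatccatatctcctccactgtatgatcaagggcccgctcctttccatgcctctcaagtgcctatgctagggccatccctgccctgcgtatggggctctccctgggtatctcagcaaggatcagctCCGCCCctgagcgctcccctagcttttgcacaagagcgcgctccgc
Slc6a4: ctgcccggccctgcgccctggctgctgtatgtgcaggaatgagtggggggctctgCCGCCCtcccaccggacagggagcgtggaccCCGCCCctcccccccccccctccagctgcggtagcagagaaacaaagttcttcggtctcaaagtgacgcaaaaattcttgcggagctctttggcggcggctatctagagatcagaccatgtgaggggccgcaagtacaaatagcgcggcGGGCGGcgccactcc
Maoa held 1 GC box and 56.8% G and C, and Slc6a4 held 3 GC boxes and 64.8% G and C. Neither held TATAAA or TTTATA. Among 32536 promoter windows of the same length, searched on both strands, 33% held a GC box, 8.54% held at least 3, 12.3% held the TATA letters, and the median G and C content was 52.4%. A match is a description of the letters and not a measured site. Promoter windows were found for 6 of the 10 genes.

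Total counts were 56687812 to 79709845 per library, and no 2 libraries were identical. Levels are given as CPM, counts scaled to a common library size by trimmed means of M values, or, between genes, as the FPKM that the authors deposited, which is also divided by the length of the gene. The 8 epithelial markers were above 0 in every library, as were the 12 smooth muscle markers. CAC replicate 2 and CAC_FPL replicate 3 stood apart in Hoxd13, a homeobox gene of the hindmost gut, at 7.32 and 47.0 CPM. It was at most 0.873 CPM in the other 25 libraries. Hoxa13, also a position marker, was at 37.3 and 56.0 CPM there but at 38.2 CPM in NC replicate 4 too. Hoxa13 ran from 1.60 to 27.6 CPM in CAC_F and from 0.553 to 3.75 CPM in CAC_FP. Leaving out the 2 libraries thus does not level position genes between the groups. Values without CAC replicate 2, CAC_FPL replicate 3 or both are given for Htr4, Slc6a4 and Tph1.

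Per kilobase, the 10 genes spanned more than 4 orders of magnitude. The mean FPKM over the 27 libraries was 100 for Maoa, 6.94 for Maob, 6.73 for Tph1, 6.10 for Penk, 2.11 for Htr2b, 2.09 for Htr3a, 1.00 for Htr4, 0.971 for Slc6a4, 0.188 for Oprd1 and 0.0056 for Oprm1. Maoa had the highest level of the 10 in each of the 5 groups and Oprm1 the lowest. Oprm1 was near the count floor in all 5 groups, where the median library of a group held under 10 counts. Oprd1 was low but not near the floor by that measure: its group medians were 35 to 76 counts, its lowest libraries held 7 counts in CAC_FPL and 8 in CAC_FP, and its FPKM reached 1 in no library. The other 8 genes held at least 87 counts in every library.

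**Figure D1:**
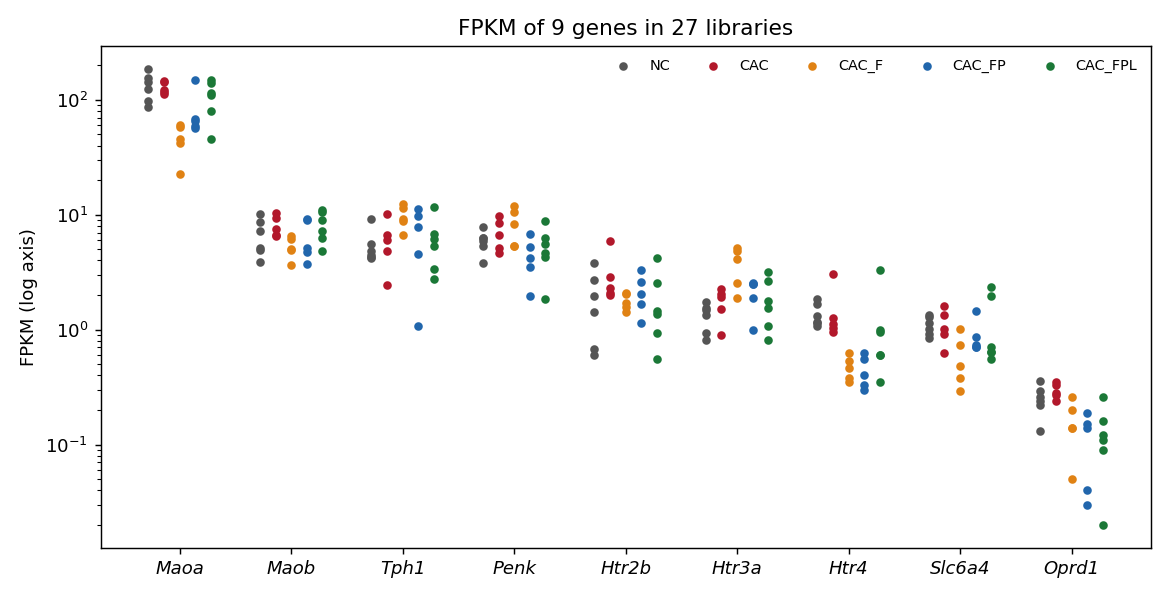
Deposited FPKM (log axis) of the 9 tested genes in each of the 27 libraries, 1 point per library and coloured by group. Maoa lies far above the others with a mean of 100 and Oprd1 lies lowest with a mean of 0.188.

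The comparison of CAC_FPL with CAC_FP asks what loperamide added to FOLFOX and the probiotic complex. None of the 9 tested genes was higher or lower at an adjusted p below 0.05 in edgeR's quasi-likelihood test with Benjamini-Hochberg adjustment over all genes. The background in this comparison was 0%, since 0 of 22935 genes passed in either direction. Htr4 was the only 1 of the 9 with an unadjusted p below 0.05, as were 1288 genes in all, or 5.62%. DESeq2 called 23 genes, none of them among the 9. In bulk tissue, fewer cells of a type and less RNA per cell cannot be told apart, which holds for every level given here.

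The serotonin receptor gene Htr4, whose product speeds the peristaltic reflex from enteric neurons and acts on the epithelium, showed the widest difference. Its gene spans chromosome 18, 62457275 to 62629648, on the plus strand. The genome build of these and the following coordinates, copied from the table, is unstated in the sources used here. The CAC_FP libraries were at 1.54, 3.23, 1.79, 2.89 and 2.01 CPM for Htr4, and the CAC_FPL libraries had a lowest value of 1.78, a median of 4.15 and a highest of 17.6 CPM. The groups overlapped, and the highest value belonged to CAC_FPL replicate 3. The Htr4 means were 6.00 ± 5.85 CPM (SD, n = 6) and 2.29 ± 0.730 CPM (n = 5), a log2 fold change of 1.39 ± 0.42 (SE). The adjusted p of Htr4 by the edgeR quasi-likelihood test was 0.738, and that by DESeq2 was 0.184. Without CAC_FPL replicate 3 the log2 fold change was 0.68. In that library the 6 markers of gut position summed to 393 CPM and the 4 markers of interstitial cells of Cajal, the pacemaker cells of the gut wall, to 777 CPM, with none of either list at 0. Thbs4 and Ano1, at 361 and 342 CPM, held most of that interstitial cell sum. Kit, another marker of that list, was at most 122 CPM in CAC_FPL and at most 124 CPM in CAC_FP. In the CAC_FP libraries the position list summed to 4.03 to 21.9 CPM, with 1 to 2 of its 6 genes at 0, and the interstitial cell list to 62.6 to 227 CPM. The part of tissue position and of these cells in the Htr4 value was not tested.

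**Figure D2:**
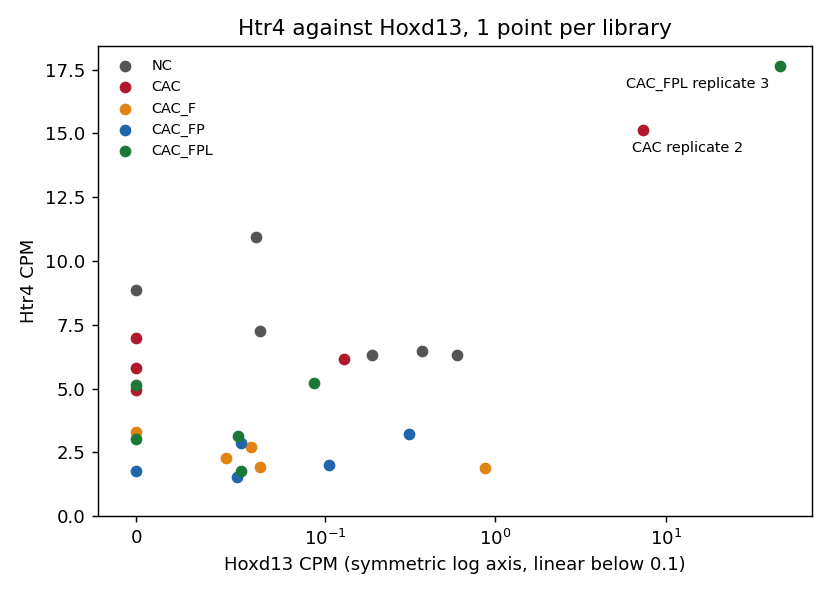
Htr4 CPM against Hoxd13 CPM (symmetric log axis, linear below 0.1), 1 point per library and coloured by group. CAC replicate 2 and CAC_FPL replicate 3 lie alone at the upper right, at 15.1 and 17.6 CPM of Htr4.

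None of the genes of serotonin clearance passed the test. Maoa encodes monoamine oxidase A, which breaks down serotonin, and its values in CAC_FPL had a lowest of 193, a median of 505 and a highest of 657 CPM. In CAC_FP, 4 libraries lay between 246 and 293 CPM and replicate 4 at 645 CPM. The log2 fold change of Maoa was 0.46 ± 0.30 with an approximate 95% interval from -0.12 to 1.03, which leaves differences of up to about 1 log2 unit. Without CAC_FP replicate 4 it was at its highest among fits with 1 library left out, 0.80. Maob, the second monoamine oxidase, was at 0.39 ± 0.26 (interval -0.12 to 0.90) and Slc6a4, the transporter, at 0.38 ± 0.38 (interval -0.36 to 1.11). Slc6a4 in CAC_FPL had a lowest value of 2.57, a median of 3.26 and a highest of 11.5 CPM, against 3.31 to 7.06 CPM in CAC_FP. Its high CAC_FPL libraries were replicates 3 and 5, with 771 and 704 counts against 185 to 270 in the other 4. The Slc6a4 value was 0.027 without replicate 3, which is one of the libraries set apart, and 0.16 without replicate 5. The split among CAC_FPL libraries was wider than the difference of the group means of 5.53 and 4.25 CPM.

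For serotonin synthesis, Tph1 was at 62.1, 50.2, 7.25, 29.6 and 72.0 CPM in the CAC_FP libraries and between 17.5 and 73.9 CPM in CAC_FPL, with a median of 38.4 CPM. Its log2 fold change was -0.17 ± 0.42 (interval -0.99 to 0.65). Htr2b, a Gq-coupled receptor, was at -0.22 ± 0.45 (interval -1.10 to 0.66) and Htr3a, a subunit of the serotonin-gated ion channel, at -0.15 ± 0.33 (interval -0.80 to 0.50). Intervals of this width do not show that these genes were alike in the 2 groups.

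Among the opioid genes, Penk lay at 7.12, 11.6, 3.48, 6.02 and 8.86 CPM in the CAC_FP libraries and had a lowest value of 3.29, a median of 8.82 and a highest of 14.7 CPM in CAC_FPL. Its log2 fold change was 0.29 ± 0.32 (interval -0.34 to 0.91). The delta receptor gene Oprd1 held 13, 54, 8, 47 and 44 counts in CAC_FP and 7 to 84 in CAC_FPL, with a log2 fold change of 0.25 ± 0.47 (interval -0.68 to 1.17). The mu receptor gene Oprm1, the main target of loperamide, held 0, 0, 0, 16 and 4 counts in the CAC_FP libraries and 0, 4, 0, 9, 0 and 8 in the CAC_FPL libraries. Pooled over the libraries of a group, that is 0.0566 CPM in CAC_FP (95% exact Poisson interval 0.0346 to 0.0875) and 0.0478 CPM in CAC_FPL (0.0296 to 0.0730). A difference in Oprm1 between them was not detectable at this depth. Across the 9 tested genes the median log2 fold change was 0.29, the value of Penk, against 0.02 over all genes tested. A shift of the 9 as a set was not tested.

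**Figure D3:**
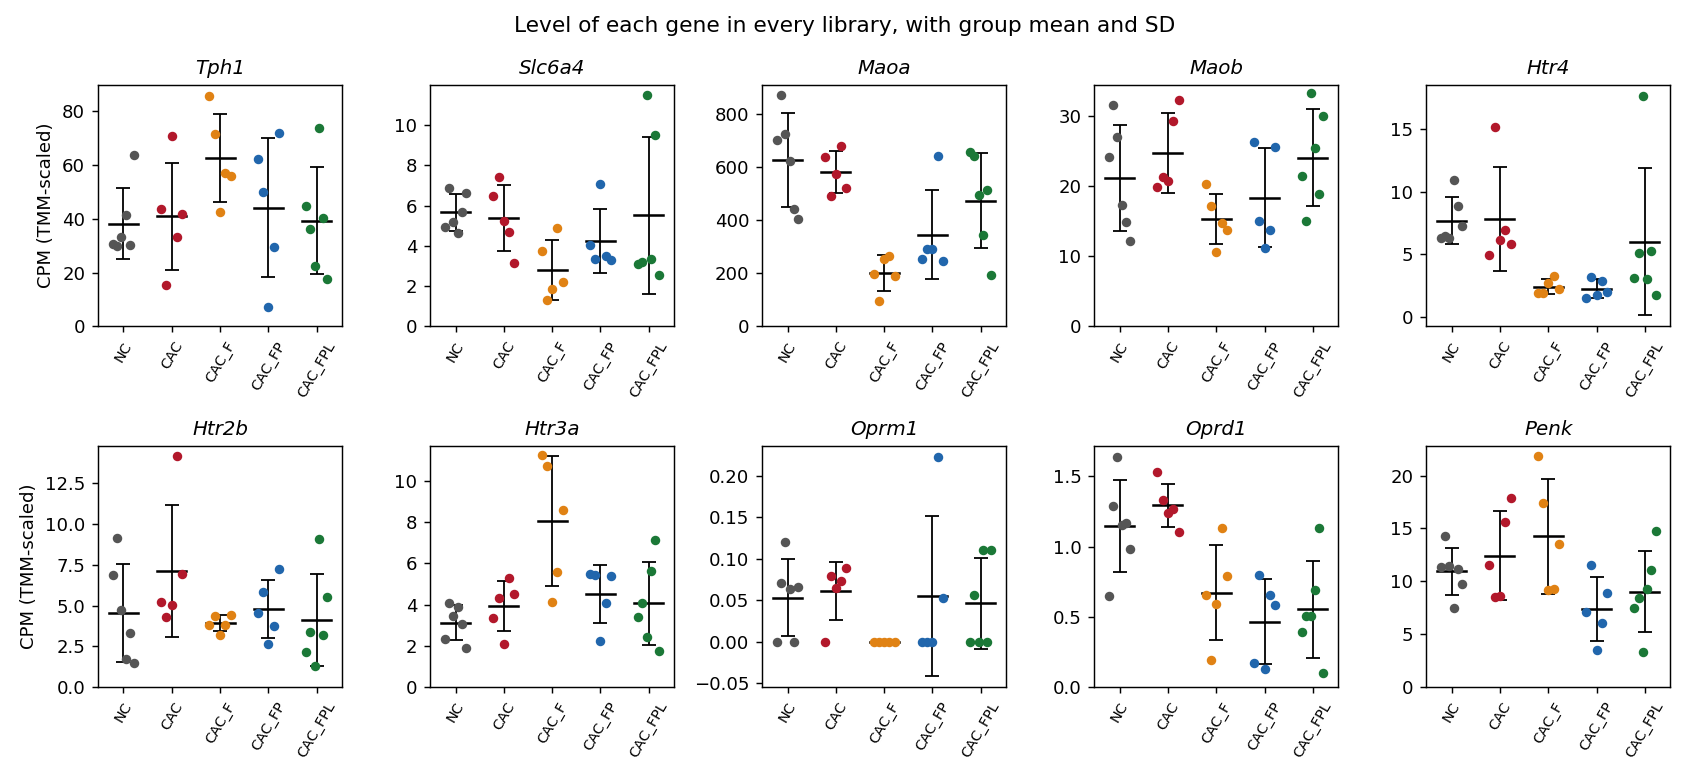
CPM of each of the 10 genes in every library by group, with the mean as a bar and the SD as whiskers (n = 6 for NC and CAC_FPL, 5 for the others). Maoa and Htr4 in CAC_F lie wholly below CAC, for which the share over all genes was not counted, and all 5 CAC_F libraries are at 0 for Oprm1.

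Under FOLFOX alone, set against untreated neoplasia (CAC_F against CAC), 3 of the 9 genes passed the test. Htr3a rose, and Maoa and Htr4 fell. Of all 22935 genes, 27.2% passed, 13.8% higher and 13.5% lower, so 1 of 9 higher and 2 of 9 lower is read against that background. An unadjusted p below 0.05 was found for 5 of the 9 and for 8859 genes in all, or 38.6%. The median log2 fold change of the 9 was -0.86, against -0.02 over all genes tested. That median is the value of Htr2b, which was -0.47 without CAC replicate 4, and a shift of the 9 as a set was not tested.

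Maoa lies on chromosome X from 16485937 to 16554057 on the plus strand in the deposited coordinates. Its promoter letters are those printed above, whose positions are those of GRCm38.p6 and do not match the deposited ones. The CAC libraries were at 639, 491, 577, 681 and 524 CPM and the CAC_F libraries at 198, 94.5, 254, 265 and 189 CPM. Every CAC_F library was below every CAC library. The share of all genes whose groups did not overlap was not counted, so this and later statements of no overlap are descriptions. The means were 582 ± 78.5 CPM (SD, n = 5) and 200 ± 67.8 CPM (n = 5), which made a log2 fold change of -1.54 ± 0.31 (SE), with an adjusted p of 0.000963 by the edgeR quasi-likelihood test. Over the fits with 1 library left out it stayed between -1.67 and -1.36 with adjusted p of 0.00103 to 0.00330.

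Htr4 was at 4.96, 15.1, 6.16, 6.97 and 5.80 CPM in the CAC libraries and at 1.94, 1.897, 2.72, 3.32 and 2.28 CPM in the CAC_F libraries. These groups did not overlap either, with the same limit. Htr4 had a log2 fold change of -1.68 ± 0.44 (SE), with an adjusted p of 0.00606 by the edgeR quasi-likelihood test, from means of 7.80 ± 4.16 CPM (SD, n = 5) to 2.43 ± 0.595 CPM (n = 5). The highest value was that of CAC replicate 2, a library set apart above, and without it the log2 fold change was -1.30 with an adjusted p of 0.0249.

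Htr3a, on chromosome 9 from 48810513 to 48822399 on the minus strand, encodes the channel subunit by which serotonin excites vagal and enteric neurons fast. It was at 3.36, 4.33, 2.11, 5.27 and 4.53 CPM in CAC and at 11.2, 10.7, 4.12, 5.56 and 8.60 CPM in CAC_F. The groups overlapped, since CAC_F replicate 3 lay within the range of CAC. The means were 3.92 ± 1.22 CPM (SD, n = 5) and 8.05 ± 3.13 CPM (n = 5), which gave Htr3a 1.04 ± 0.35 on the log2 scale (SE), with an adjusted p of 0.0291 by the edgeR quasi-likelihood test. The call was lost when CAC replicate 1 (adjusted p = 0.0604), CAC replicate 3 (0.0803), CAC_F replicate 1 (0.0816) or CAC_F replicate 2 (0.0754) was left out, with log2 fold changes of 0.88 to 0.99.

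Cell type markers moved with these genes. Of the 12 smooth muscle markers 10 fell, and their sum ran from 3794 to 16433 CPM in CAC and from 1950 to 3346 CPM in CAC_F. Of the 7 macrophage markers 5 rose, and their sum ran from 302 to 429 CPM in CAC and from 507 to 1160 CPM in CAC_F. Neither list had a marker at 0 in these libraries. With the mean level of the smooth muscle markers as a covariate, the log2 fold changes were -1.68 for Maoa, -2.44 for Htr4 and 1.47 for Htr3a, and all 3 calls stood. The smooth muscle sums of CAC and CAC_F did not overlap. Such a fit therefore cannot tell muscle content apart from FOLFOX, here or for the genes below. Of the 15 enteric neuron markers 1 rose, and their sum ran from 90.0 to 214 CPM in CAC and from 101 to 224 CPM in CAC_F. Of the 4 interstitial cell markers 1 fell, the sum running from 234 to 433 CPM in CAC and from 142 to 253 CPM in CAC_F. The 6 position markers summed to 15.3 to 144 CPM in CAC and to 10.3 to 36.4 CPM in CAC_F. Hoxa13, one of them, ran from 2.26 to 37.3 CPM in CAC and from 1.60 to 27.6 CPM in CAC_F. The part of macrophages, neurons, interstitial cells and gut position in the 3 calls was not tested. That of smooth muscle could not be told apart from treatment.

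Of the 6 genes that did not pass, 2 had an unadjusted p below 0.05. Maob, on chromosome X from 16575521 to 16683605 on the minus strand, was at 19.8, 21.3, 20.7, 29.3 and 32.4 CPM in CAC and at 20.3, 17.2, 10.7, 14.8 and 13.8 CPM in CAC_F. A single CAC_F library, replicate 1, reached into the CAC range. Its log2 fold change was -0.69 ± 0.27 with an adjusted p of 0.0624 by edgeR, which fell below 0.05 with a filter on FPKM (0.0467), by DESeq2 (just under it), with these 2 groups alone in the fit (0.0395) and without CAC_F replicate 1 (0.0471). With the smooth muscle covariate the Maob value was -0.15 (adjusted p = 0.753).

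Slc6a4, on chromosome 11 from 76889429 to 76923166 on the plus strand, was at 6.49, 7.40, 5.22, 4.68 and 3.16 CPM in CAC and at 3.75, 1.31, 1.84, 4.89 and 2.21 CPM in CAC_F. The ranges overlapped between 3.16 and 4.89 CPM. A predicted gene on the other strand, Gm12343, overlaps Slc6a4 by 960 bases and held at most 0.0497 CPM. Its log2 fold change was -0.95 ± 0.39 (adjusted p = 0.0761, edgeR), and it became -1.84 (adjusted p = 0.00210) with the smooth muscle covariate. Leaving out CAC_F replicate 4 also brought the adjusted p below the threshold, to 0.0284. Other fits with 1 library left out gave smaller values. The log2 fold change was -0.80 without CAC replicate 2, a library set apart above (adjusted p = 0.154, edgeR). Without CAC_F replicate 2 it was -0.77 (adjusted p = 0.181, edgeR), and without both libraries set apart it was -0.81 (adjusted p = 0.104, edgeR).

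Tph1, on chromosome 7 from 46294065 to 46321961 on the minus strand, did not pass. It was at 43.6, 15.3, 70.7, 33.1 and 42.0 CPM in CAC and at 85.9, 71.4, 42.7, 57.1 and 56.0 CPM in CAC_F. The lowest CAC library, replicate 2, is one of those set apart. The log2 fold change of Tph1 was 0.61 ± 0.44 (interval -0.24 to 1.47; adjusted p = 0.319, edgeR), and without that library it was 0.40 (adjusted p = 0.535, edgeR). Without CAC replicate 3, the highest CAC library, it was 0.90 (adjusted p = 0.165, edgeR). The 15 markers of enterochromaffin and other enteroendocrine cells, among which Tph1 is not counted, summed to 241 to 510 CPM in CAC and to 418 to 1235 CPM in CAC_F, and 1 of them rose and 2 fell.

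Htr2b, on chromosome 1 from 86026748 to 86039692 on the minus strand, was at 5.23, 4.33, 5.01, 14.1 and 6.95 CPM in CAC and at 3.19 to 4.42 CPM in CAC_F. Its log2 fold change of -0.86 ± 0.47 (adjusted p = 0.183, edgeR) drew on CAC replicate 4. It was -0.47 without that library (adjusted p = 0.515, edgeR) and 0.29 with the smooth muscle covariate. All 12945 bases of Htr2b lie within Psmd1, a proteasome subunit gene on the other strand, at 87.7 to 193 CPM. The sources used here do not say whether the counting used strand, so reads of Htr2b and Psmd1 may not be separable. Psmd1 rose in CAC_F, by a log2 fold change of 0.64 ± 0.12, and its correlation with Htr2b over the 27 libraries was -0.16.

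The opioid genes did not pass in CAC_F against CAC. Penk, on chromosome 4 from 4133531 to 4138819 on the minus strand, was at 11.6, 8.51, 8.62, 15.6 and 17.9 CPM in CAC and at 21.9, 17.4, 9.14, 9.26 and 13.5 CPM in CAC_F. Penk overlaps A830012C17Rik on the other strand by 499 bases, at 0 to 0.974 CPM. The 2 sets of Penk values were interleaved, and the log2 fold change was 0.20 ± 0.33 (interval -0.45 to 0.84). Oprd1, on chromosome 4 from 131838037 to 131871797 on the minus strand, held 102, 100, 76, 69 and 75 counts in CAC and 40, 13, 39, 75 and 66 in CAC_F. At 1.29 ± 0.155 CPM (SD, n = 5) and 0.673 ± 0.338 CPM (n = 5) its log2 fold change was -0.94 ± 0.49 (adjusted p = 0.157, edgeR). Limma on log2(FPKM + 1) gave Oprd1 a value of -0.16 on that scale with an adjusted p of 0.0316, whereas the other alternatives left it at 0.0680 to 0.319.

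**Figure D4:**
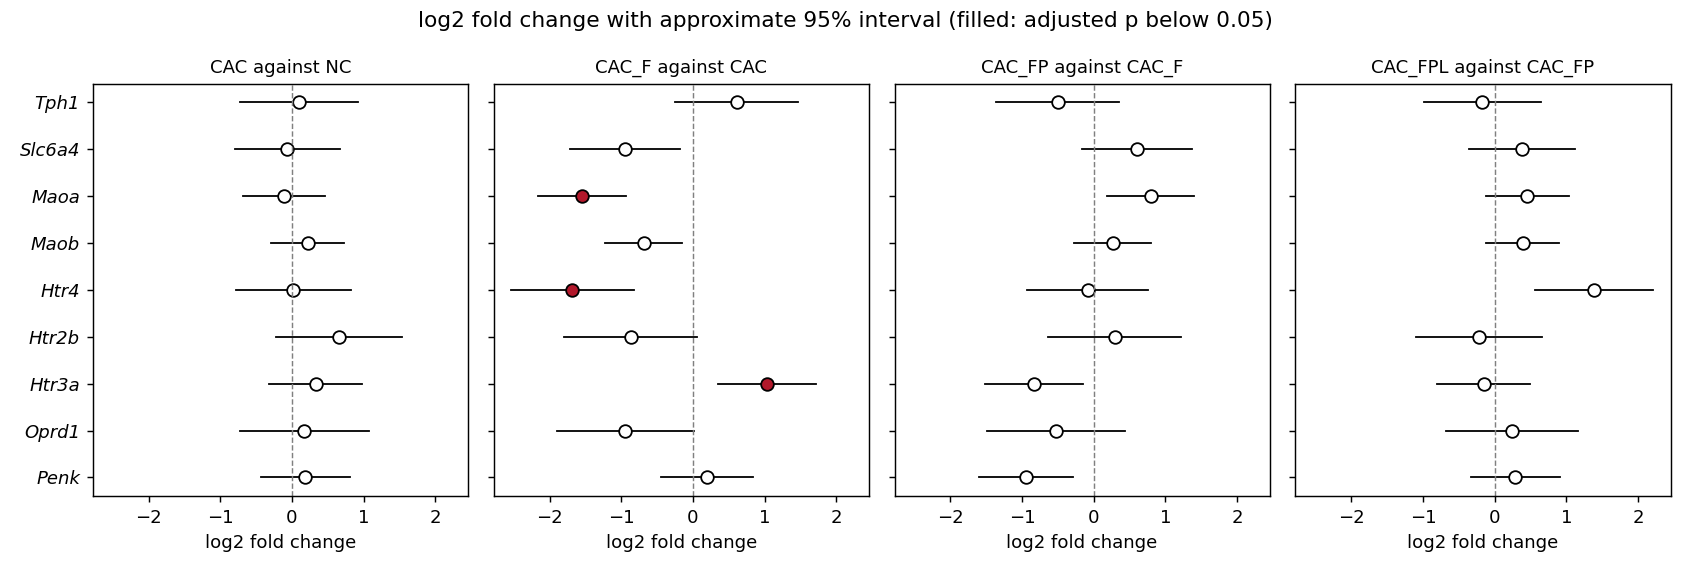
log2 fold change of the 9 tested genes in 4 comparisons, with approximate 95% intervals, and filled points where the adjusted p was below 0.05. Filled points are Maoa at -1.54, Htr4 at -1.68 and Htr3a at 1.04 in CAC_F against CAC, and there are none in the other panels.

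Oprm1, on chromosome 10 from 6708506 to 6988198 on the plus strand, held 80 counts in all 27 libraries together. It was at 0 in 14 libraries. NC libraries held 0, 4, 7, 4, 0 and 4 counts, CAC libraries 0, 6, 4, 4 and 6, and all 5 CAC_F libraries held 0. A total of 0 counts in CAC_F allows a pooled level of up to 0.00874 CPM, taken as 3 counts over the group, whereas the pooled level in CAC was 0.0614 CPM (95% exact Poisson interval 0.0375 to 0.0949). That is 7.03 times the CAC_F limit, and the lower end of the CAC interval is 4.29 times it. By the same kind of interval as that of CAC, the upper end for CAC_F is higher than this limit, at 0.0108 CPM. Such intervals and floors cover counting error only, and they take each count as independent of the others. In an edgeR fit without a filter the adjusted p of Oprm1 in this comparison was 0.0581, and no fold from that fit is given. Oprm1 overlaps Ipcef1 on the other strand by 152403 bases, at 1.12 to 7.28 CPM. Counts of 4 were more frequent in the table than counts of 3 or 5, with 29929, 15201 and 10106 values, which bears on Oprm1, whose commonest value above 0 was 4. Its counts may therefore not be independent, and the Poisson intervals given for Oprm1 may be too narrow.

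CAC against NC set neoplastic against untreated colon, the tissue source changing too. None of the 9 genes passed, and none had an unadjusted p below 0.05, by the edgeR quasi-likelihood test. The background was 0.00436%, or 1 gene of 22935, which was lower, with 0% higher. An unadjusted p below 0.05 was found for 1501 genes, or 6.54%, and DESeq2 called 48 genes, none of them among the 9. The values nearest to 0 were those of Htr4 at 0.02 ± 0.41, Slc6a4 at -0.07 ± 0.37, Tph1 at 0.10 ± 0.42 and Maoa at -0.11 ± 0.29. Maoa in NC had a lowest value of 406, a median of 664 and a highest of 873 CPM, and Htr4 in NC 6.31, 6.86 and 11.0 CPM. Htr2b had the widest difference, 0.65 ± 0.45 (interval -0.23 to 1.53), with 1.46 to 9.14 CPM in NC, and it was 0.23 without CAC replicate 4, the highest CAC library. The remaining 4 lay between 0.17 and 0.33.

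The comparison of CAC_FP with CAC_F asks what the probiotic complex added to FOLFOX. None of the 9 genes passed the edgeR quasi-likelihood test, and 0% of 22935 genes did in either direction. An unadjusted p below 0.05 was found for 3 of the 9 and for 3007 genes in all, or 13.1%. DESeq2 called 252 genes, none of them among the 9. Those 3 were Penk at -0.94 ± 0.33 (adjusted p = 0.234), Htr3a at -0.83 ± 0.35 (adjusted p = 0.308) and Maoa at 0.79 ± 0.31 (adjusted p = 0.277). Maoa was at 254, 293, 293, 645 and 246 CPM in CAC_FP, and without replicate 4, the high library, its value was 0.44. Htr3a was at 5.46, 5.42, 2.24, 4.09 and 5.40 CPM in CAC_FP. Htr4 was low in both groups, at 2.43 and 2.29 CPM, with a log2 fold change of -0.09 ± 0.43. The other 5 lay between -0.53 for Oprd1 and 0.60 for Slc6a4. CAC_FP and CAC_F libraries overlapped for each of the 9 genes.

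CAC_FPL was also set against CAC, a comparison that shares its libraries with those above. None of the 9 genes passed the edgeR quasi-likelihood test, against a background of 0.597% of genes, 0.427% higher and 0.17% lower. Oprd1 alone had an unadjusted p below 0.05, as had 3494 genes in all, or 15.2%. DESeq2 called 834 genes and none of the 9. Oprd1 held 69 to 102 counts in CAC and 7 to 84 in CAC_FPL, with a median of 35, and its log2 fold change was -1.22 ± 0.46 (adjusted p = 0.195, edgeR). Side by side, the values of Maoa against CAC were -1.54 in CAC_F and -0.29 ± 0.29 in CAC_FPL, those of Htr4 were -1.68 and -0.38 ± 0.41, and those of Htr3a were 1.04 and 0.05 ± 0.33. Both sets share the CAC libraries, and the difference between them was not tested. The Htr4 value in CAC_FPL was -1.09 without CAC_FPL replicate 3 (adjusted p = 0.0598), 0.0049 without CAC replicate 2 (adjusted p = 0.996), and -0.72 without both (adjusted p = 0.133).

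By mean CPM the order of the groups for Maoa was NC, CAC, CAC_FPL, CAC_FP and CAC_F, and for Htr4 CAC, NC, CAC_FPL, CAC_F and CAC_FP. Htr3a, Tph1 and Penk had their highest mean in CAC_F. For each of the 10 genes, groups next to each other in its order overlapped in their library values.

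The rest of the 2 pathways was taken from lists of 51 further genes, of which 38 were tested. In CAC_F against CAC 4 rose and 2 fell, and in the other 4 comparisons none was called. That is a smaller share than the 27.2% of all genes called in CAC_F against CAC, 13.8% higher and 13.5% lower. The genes named below are thus not set apart from that background. Over the 38 genes the median log2 fold change in CAC_F against CAC was 0.02. Gnaz, a G protein subunit that opioid receptors use, fell from 2.14 ± 0.621 to 1.12 ± 0.343 CPM (SD, n = 5 each), a log2 fold change of -0.92 ± 0.23 with an adjusted p of 0.00512 by edgeR. Gnai3, an inhibitory G protein subunit, rose by 0.33 ± 0.094 (adjusted p = 0.0106, edgeR). Abcb1b, a P-glycoprotein gene of the pump family that exports loperamide, rose by 0.79 ± 0.21 (adjusted p = 0.00616, edgeR), from 11.5 ± 1.38 to 19.9 ± 6.65 CPM. Pdyn, the dynorphin precursor, rose from 0.484 ± 0.176 to 1.87 ± 1.38 CPM, or 1.95 ± 0.63 on the log2 scale (adjusted p = 0.0237 by edgeR), and its groups did not overlap. Outside the rule for named genes, and chosen after their values were seen, Gnai2 rose by 0.24 ± 0.085 (adjusted p = 0.0385, edgeR) and Slc18a2, the vesicular monoamine transporter, fell by 0.69 ± 0.25 on the log2 scale (adjusted p = 0.0432, edgeR). With the smooth muscle covariate the calls of Gnaz (-0.52, adjusted p = 0.148), Gnai3 (0.19, adjusted p = 0.199), Gnai2 (0.21, adjusted p = 0.158) and Slc18a2 (-0.43, adjusted p = 0.327) were lost. The call of Pdyn was lost without CAC replicate 1 (adjusted p = 0.0539), CAC replicate 3 (0.0577) or CAC_F replicate 2 (0.105). Gnai2 lost its call without CAC replicates 3, 4 or 5 or CAC_F replicates 1, 2 or 5, with adjusted p of up to 0.133, and Slc18a2 without the same CAC replicates or CAC_F replicates 1, 2 or 4, with up to 0.1395. The call of Abcb1b held in each alternative.

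By list, the serotonin receptors had 7 of 14 genes tested, and besides Htr3a and Htr4 none was called. Serotonin synthesis and storage had 4 of 5 tested, with Slc18a2 lower, and clearance and conversion had 5 of 7 tested, with Maoa lower. Of the opioid receptors 4 of 5 were tested and none was called. The opioid precursors had 3 of 4 tested and 1 higher, and the 11 tested of 12 signalling genes had 2 higher and 1 lower. Neither the 5 genes that process opioid peptides nor the 4 that break them down held a called gene. Of the 5 genes of loperamide transport and metabolism, 4 were tested. The brain tryptophan hydroxylase gene Tph2 held 64 counts in all libraries and was at 0 in 19 of them.

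Genes with the most similar pattern were found by Pearson's r of log2 CPM over the 27 libraries, which share group differences, so r is a description. Tph1 followed Chga (0.82), the granule protein of enteroendocrine cells, then Cck (0.82) and Sez6l2 (0.81). Maoa followed Naprt, an enzyme that makes NAD from nicotinic acid (0.97), then Hadh (0.97), an enzyme of fatty acid oxidation, and Cth (0.96), an enzyme of cysteine synthesis. Htr4 was most like St3gal6 (0.90), Casd1 (0.90) and Sycn (0.88). Slc6a4 was most like Nat8f4 (0.80), Tmem45b (0.77) and Slc5a8 (0.76), and Maob most like Enpp3 (0.83), Gas6 (0.83) and Klhl36 (0.77). For Htr2b these were Dlgap1 (0.86), Ppp2r2b (0.82) and Kcnt2 (0.81), and for Htr3a they were Rims3 (0.84), Dnah7b (0.83) and Ip6k2 (0.82). Penk was most like 6330403K07Rik (0.79), Uchl1 (0.78), a neuronal hydrolase, and Gpr37l1 (0.78), and Oprd1 most like Kcnj16 (0.79), Glt1d1 (0.76) and Hmx3 (0.76). Among the 9 themselves the highest r were those of Htr4 with Maoa (0.68), Oprd1 (0.65) and Slc6a4 (0.64), and the lowest was that of Htr3a with Maoa (-0.45).

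Against the summed marker lists, over the same 27 libraries, Tph1 had its highest r with the enteroendocrine list (0.74). Htr3a (0.79), Penk (0.71) and Htr2b (0.70) had theirs with the enteric neuron list, and Htr4 with the interstitial cell list (0.74). In CAC_FPL replicate 3, the library highest in Htr4, Thbs4 and Ano1 held most of the interstitial cell sum. Maoa had its largest r in size with the macrophage list, at -0.92, and Maob had 0.59 with the smooth muscle list. For Slc6a4 and Oprd1 the largest in size were -0.46 and -0.60, both with the macrophage list, the latter matched by -0.60 with the fibroblast list. These libraries share their group differences and their tissue makeup, so no p is given.

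**Figure D5:**
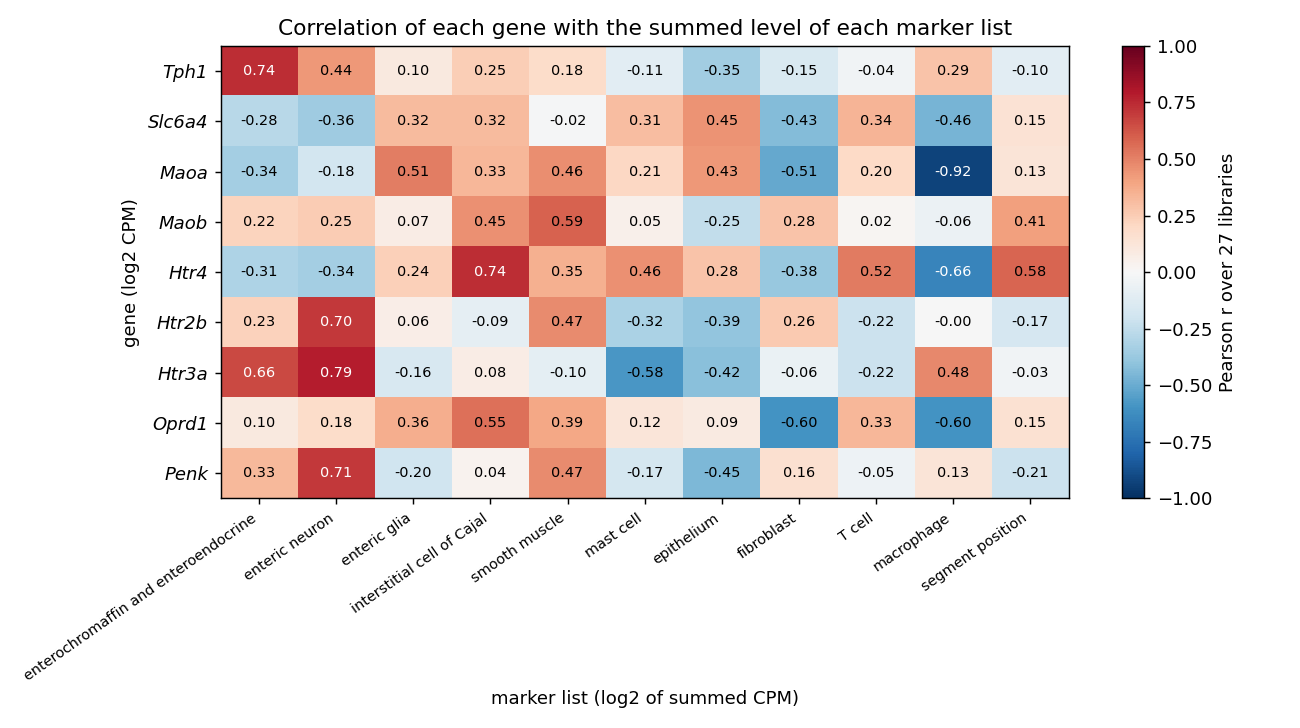
Pearson's r over 27 libraries between the log2 CPM of each tested gene (rows) and the log2 of the summed CPM of each marker list (columns), with r printed in each cell. The largest value in size is -0.92 for Maoa with the macrophage list.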

How the data were processed

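Colon RNA of 27 libraries was sequenced as stranded mRNA libraries made with dUTP, per the labels' protocols. The table the authors deposited gives each library a column of raw read counts, which are whole numbers, and a column of FPKM rounded to 2 decimals. Columns were matched to libraries by title. Tools named in the submitters' processing notes are cutadapt 1.9, HISAT2 and FastQC. What each did, how reads were counted, whether strand was used, and which annotation and build were taken is unstated in the sources used here. The labels give 1 batch.

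Genes with at least 10 counts in at least 5 libraries were kept (22935 genes, 9 of the 10 members). Library sizes were adjusted by trimmed means of M values. All 27 libraries entered 1 fit, with the group as the factor, in edgeR 4.0.16 (quasi-likelihood test, two-sided) in R 4.3.3. Genes were called at a Benjamini-Hochberg adjusted p below 0.05. The SE was derived from the fold change and the F statistic, and both it and the interval from it are approximate. The scripts were tested on simulated data. Members, lists and comparisons were chosen with earlier results of these data known.

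The alternatives were a filter of FPKM of at least 1, no filter, median-ratio size factors, DESeq2 1.42.0, limma 3.58.1 on log2(FPKM + 1) and on log2(FPKM + 0.1), a fit of only the groups compared, a replicate block, a smooth muscle covariate, 2 libraries left out together, and each library left out in turn. The named genes are the 10 members, at most 4 called pathway genes per comparison with the smallest adjusted p, and the 3 genes with the highest correlation to each member. Marker lists are given as called counts and summed CPM, and a few single markers were named after their values were seen.

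Of the marker lists whose called genes are not given above, in CAC_F against CAC 4 of 8 T cell and 2 of 11 mast cell markers fell. Of the 7 enteric glia markers 1 fell, 2 of 8 epithelial markers rose, and 2 of 8 fibroblast markers rose and 1 fell. None of the 5 tested position markers was called. In the other comparisons 1 marker of any list was called, an enteroendocrine one lower in CAC_FPL than in CAC. Promoter letters are from RefSeq, GRCm38.p6, read by gene symbol and not by the deposited coordinates. For Maoa and Slc6a4 the promoter positions lie past the end of the gene in the deposited coordinates, so the deposited positions are not those of GRCm38.p6.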

Additional observations from a re-analysis of the deposited data

Results flagged for a closer look

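Each of the 10 genes was looked at in each of the 5 groups for a highest or lowest library that lay far from the rest of its group by Dixon's ratio at the 95% level. Of these 50 sets, 8 held such a library. The rate of about 1 in 20 by chance holds for normally distributed values and separate sets. CPM values may be skewed, and the sets share libraries, so the 8 are not weighed against that rate. Oprm1 in CAC_F, at 0 throughout, could not hold such a library. On the high side, Htr4 was at 15.1 CPM in CAC replicate 2, the other CAC libraries lying at 4.96 to 6.97 CPM, and at 17.6 CPM in CAC_FPL replicate 3, the others lying at 1.78 to 5.24 CPM. Those are the libraries with high Hoxd13. Maoa was at 645 CPM in CAC_FP replicate 4 (others 246 to 293 CPM), Htr2b at 14.1 CPM in CAC replicate 4 (others 4.33 to 6.95 CPM), Slc6a4 at 7.06 CPM in CAC_FP replicate 3 (others 3.31 to 4.02 CPM) and Tph1 at 63.8 CPM in NC replicate 6 (others 29.9 to 41.6 CPM). In NC replicate 6 the 11 mast cell markers summed to 1408 CPM, against 45.3 to 267 CPM in the other NC libraries. The 15 enteroendocrine markers summed to 243 CPM there, the lowest sum in NC. Over the 27 libraries the r of Tph1 with the mast cell list was -0.11. The part of mast cells in the Tph1 value was not tested. Oprm1 was at 0.223 CPM, or 16 counts, in CAC_FP replicate 4 (others 0 to 0.0529 CPM). On the low side, Oprm1 was at 0 CPM in CAC replicate 1, the others lying at 0.0651 to 0.0886 CPM, a difference of at most 6 counts.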

How the results depend on the processing

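In CAC_F against CAC the directions of Maoa, Htr4 and Htr3a held in every alternative run, and the calls of Maoa and Htr4 did too. That of Htr3a was lost in the 4 leave-out fits given in the report. Across the alternatives the number of the 9 genes called there was 2 to 4, and in the other 4 comparisons it was 0 in each. Median-ratio size factors moved the median of all genes by less than 0.1. Genes near the floor and the 5 or 6 libraries of a group limit what could be detected.

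The number of all genes called in CAC_FPL against CAC was 137, and it was 212 with the FPKM filter, 82 with no filter, 834 by DESeq2, 221 and 244 by limma with 1 and 0.1 added, 3 with only the groups compared, 56 with the replicate block and 905 without CAC replicate 2 and CAC_FPL replicate 3. With 1 library left out it was 18 (without CAC replicate 3 or CAC replicate 4) to 608 (without CAC replicate 2), 52 without CAC replicate 5, 89 without CAC replicate 1, 223, 476, 55, 48 and 91 without CAC_FPL replicates 2, 3, 4, 5 and 6. In CAC_FPL against CAC_FP it was 0, 23 by DESeq2, and 0 to 4 with 1 library left out (4 without CAC_FPL replicate 4 and 3 without CAC_FPL replicate 5). In CAC_FP against CAC_F it was 0, 252 by DESeq2, 3 by limma with 1 added, and 0 to 549 with 1 library left out (549 without CAC_F replicate 3 and 5 without CAC_F replicate 5). In CAC against NC it was 1, 48 by DESeq2, 0 by limma with 0.1 added, with only the groups compared, with the replicate block and with the smooth muscle covariate, and 0 to 2 with 1 library left out (0 without NC replicates 2 or 6 or CAC replicates 1, 4 or 5, and 2 without NC replicates 4 or 5 or CAC replicate 3). The cause was not tested.

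Log2 fold changes that changed sign were all of genes that were not called. Htr4 in CAC against NC was -0.0013 with no filter, -0.0022 by limma with 0.1 added, -0.20 with the replicate block and -0.37 without both libraries. Slc6a4 in CAC_FPL against CAC was -0.029 and -0.11 by limma with 1 and 0.1 added, -0.019 with the block, -0.60 with the covariate and -0.19 without both libraries. Maob there was 0.00073 with the block and 0.32 with the covariate, and Tph1 there was 0.19 with the covariate. Tph1 in CAC_FPL against CAC_FP was 0.0056 by limma with 0.1 added, and Htr2b in CAC_F against CAC was 0.29 with the covariate. With 1 library left out the ranges that crossed 0 were, in CAC against NC, -0.21 to 0.31 for Tph1, -0.21 to 0.074 for Slc6a4 and -0.37 to 0.15 for Htr4. In CAC_FPL against CAC they were -0.34 to 0.23 for Tph1, -0.32 to 0.18 for Slc6a4, -0.16 to 0.079 for Maob, -1.09 to 0.0049 for Htr4 and -0.18 to 0.21 for Htr3a. In CAC_FPL against CAC_FP they were -0.45 to 0.074 for Tph1, -0.39 to 0.0038 for Htr3a and -0.090 to 0.52 for Oprd1. Penk in CAC_F against CAC ran from -0.012 to 0.36 and Htr4 in CAC_FP against CAC_F from -0.24 to 0.051.

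Replicate numbers are shared by the groups. The deviations of libraries of the same number from their groups had r of -0.31 to 0.22 over genes. Libraries of different number were not set beside them, so these values cannot show whether the numbers pair the libraries. The main fit took the libraries as unpaired. The same alternatives were run for the named genes outside the 10, a choice made after seeing the data, and those of Gnai3 (adjusted p = 0.0559), Gnai2 (0.142), Slc18a2 (0.0978) and, in CAC_FPL against CAC, Sst (0.187) lost their call with only the groups compared. Slc18a2 lost it with no filter (0.0792) and by limma too. The replicate block, under which Gnai2 (0.0535) and Slc18a2 (0.0604) were not called, changed none of the calls of the 9 genes.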

Other observations

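Some genes around the 10 were noted after their values were seen. Htr7, a serotonin receptor of neurons and smooth muscle, had a mean CPM of 1.13 ± 0.557 (SD) over the 5 libraries of CAC_F, 0.439 ± 0.209 over the 5 of CAC_FP and 0.892 ± 0.253 over the 6 of CAC_FPL. Its log2 fold changes were -1.36 ± 0.35 (SE) in CAC_FP against CAC_F and 1.02 ± 0.34 in CAC_FPL against CAC_FP, with adjusted p of 0.159 and 0.746 by the edgeR quasi-likelihood test, so neither passed, and the 2 comparisons share the CAC_FP libraries. Mme, the enkephalin-cleaving neprilysin, and Anpep, an aminopeptidase that trims enkephalins, were at 2.95 ± 0.83 and 1.62 ± 0.43 in CAC_FPL against CAC, with adjusted p of 0.0859 and 0.0751 by the same test, and neither passed. DESeq2 called Htr7 in CAC_FP against CAC_F (adjusted p = 0.0247), Mme (0.00452) and Anpep (0.00734). EdgeR called Htr7 there without CAC_F replicate 3 (adjusted p = 0.0348), Mme without CAC_FPL replicate 3 (0.0341), and Anpep without CAC_FPL replicate 2 (0.0289) or 3 (0.0324).

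Among the enteroendocrine markers, 3 were called in CAC_F against CAC. Neurog3, the transcription factor of enteroendocrine progenitors, fell to a mean CPM of 0.0425 ± 0.0792 (SD, n = 5) from 1.17 ± 0.508 (n = 5), with an adjusted p of 0.00396 by edgeR. Its CAC_F libraries ran from 0 to 0.182 CPM and its CAC libraries from 0.561 to 1.89 CPM, with no overlap. Sst, the somatostatin gene, fell by 1.57 ± 0.41 on the log2 scale (adjusted p = 0.00620, edgeR), and Pyy, the peptide YY gene, rose by 1.45 ± 0.43 (adjusted p = 0.0144, edgeR). Sst was also lower in CAC_FPL than in CAC, at -2.00 ± 0.39 on the log2 scale (adjusted p = 0.0205 by edgeR), a comparison that shares the CAC libraries, and this call was lost without CAC replicate 3 (adjusted p = 0.0526) or CAC replicate 4 (0.0875). With the smooth muscle covariate, Sst and Pyy in CAC_F against CAC had adjusted p of 0.0864 and 0.134 and were not called, whereas Neurog3 was.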
